A study of Mus musculus with 19 samples.

Results

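The 10 genes described here, Bcat2, Bckdha, Bckdhb, Dbt, Ivd, Acadsb, Acad8, Mccc1, Mccc2 and Hibch, encode enzymes of branched-chain amino acid catabolism. They were chosen by symbol, 10 of 24237 genes with values, and all 10 passed the filter on low values that kept 8336 genes. Gene expression was measured by RNA sequencing of epididymal white adipose tissue (eWAT), the visceral fat depot beside the epididymis, of male C57Bl6/J mice after 17 weeks of diet. The diets held a low amount of fat with normal Mg2+ (NormMg-LFD, n = 4, replicates 2 to 5) or low Mg2+ (LowMg-LFD, n = 5), or a high amount of fat with normal Mg2+ (NormMg-HFD, n = 5) or low Mg2+ (LowMg-HFD, n = 5). The labels name no genotype other than this strain and no treatment other than the diet, while the methods of the study describe insulin and glucose tolerance tests by injection in the weeks before the end, and each library is the bulk RNA of 1 mouse. Values are FPKM, the number of fragments scaled for gene length and for mapped reads, so that levels can be set side by side between genes. Fold changes are on the scale of log2(FPKM + 1). An adjusted p is that of limma with Benjamini-Hochberg adjustment over the 8336 genes tested, and a gene is said to have risen or fallen where it is under 0.05.

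Leucine, isoleucine and valine cannot be made by mammals, and their carbon is broken down in mitochondria along a pathway that begins with shared enzymes and then divides. BCAT2 moves the amino group to a keto acid, and the branched-chain keto acid dehydrogenase (BCKDH) complex then removes a carbon in the committed step, leaving a branched acyl-CoA. Each acyl-CoA is next oxidised by a dehydrogenase of its own and goes on to products of the citric acid cycle or to acetyl-CoA and ketone bodies. Adipocytes are known to express this pathway at a high level and to use its carbon for lipid synthesis.

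A few promoters are shown because the members with the largest falls on the HFD at normal Mg2+, Ivd and Acadsb, and the member with the smallest difference, Acad8, encode enzymes of the same family. Each sequence is the 250 bases before the start site in the RefSeq table (GRCm38.p6), on the gene's own strand, and capitals mark GGGCGG (GC box) and CCAAT on either strand.
Ivd, chr2:118861744-118861993, plus strand: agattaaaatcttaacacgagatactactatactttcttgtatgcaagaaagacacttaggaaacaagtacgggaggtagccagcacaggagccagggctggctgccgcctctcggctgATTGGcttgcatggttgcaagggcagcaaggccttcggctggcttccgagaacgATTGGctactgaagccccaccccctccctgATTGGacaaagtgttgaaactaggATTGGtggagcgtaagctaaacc
Acadsb, chr7:131410351-131410600, plus strand: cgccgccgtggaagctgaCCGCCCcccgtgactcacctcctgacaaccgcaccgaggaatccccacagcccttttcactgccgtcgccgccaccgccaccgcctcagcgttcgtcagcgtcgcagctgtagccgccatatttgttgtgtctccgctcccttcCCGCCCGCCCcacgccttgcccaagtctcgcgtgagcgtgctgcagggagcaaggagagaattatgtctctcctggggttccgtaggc
Acad8, chr9:26999550-26999799, minus strand: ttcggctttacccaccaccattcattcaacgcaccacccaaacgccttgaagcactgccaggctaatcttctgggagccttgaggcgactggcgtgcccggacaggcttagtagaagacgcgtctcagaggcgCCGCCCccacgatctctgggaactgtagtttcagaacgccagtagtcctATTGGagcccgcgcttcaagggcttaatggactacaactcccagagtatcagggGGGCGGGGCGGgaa
The Ivd stretch held 4 CCAAT and no GC box, the Acadsb stretch 3 GC boxes and no CCAAT, and the Acad8 stretch 3 GC boxes and 1 CCAAT. Over windows that also take in 50 bases after the start, 9 of the 10 genes matched the table (Dbt did not), with 11 windows in all. A GC box was found in 5 of the 11 windows, against 35.7% of 32851 promoters, and a CCAAT in 6 of 11, against 37.4%, each in 5 of the 9 genes. TATAAA was found in none of the 11 windows (13.6% of all promoters), CACGTG in 1, that of Mccc2 (7.2%), and TCAAGGTCA in none (0.4%). The GC content was 53.0% in the Ivd window, 66.0% in that of Acadsb and 58.3% in that of Acad8, all above the median of 52.7% over all promoters. These matches describe letters in the windows, and no other data on binding were used here.

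The libraries were even in depth, with 12986441 to 13027028 reads and 86.12% to 90.41% of them mapped. All 8 adipocyte markers were expressed, with a summed level of 12194 to 20728 FPKM in each mouse, and each was found in every group. NormMg-LFD replicate 3 stood apart: its 10 markers of exocrine pancreas summed to 1587 FPKM, against 12.4 to 52.4 FPKM in the other mice. In LowMg-HFD mice, where the methods of the study place a mouse left out for pancreatic tissue, the pancreas sum was 20.6 to 44.6 FPKM. LowMg-LFD replicate 4 had 133 FPKM summed over markers of epididymis, against at most 4.27 FPKM in the other mice. Counts of members called are therefore also given without these mice.

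The HFD lowered most of the pathway when Mg2+ was normal, and with low Mg2+ on the HFD most of the 10 genes were at higher levels than with normal Mg2+. Between NormMg-HFD and NormMg-LFD mice, 9 of the 10 genes fell, by 0.48 to 1.39 on the log2 scale, and in all 9 the groups did not overlap. Of all genes tested, 12.8% fell and 10.6% were lower without overlap. Between LowMg-HFD and NormMg-HFD mice, 8 of the 10 rose, by 0.35 to 0.76, and in 6 of these the groups did not overlap. Of all genes tested, 5.58% rose and 3.20% were higher without overlap. On the LFD, none of the 10 passed the test with low Mg2+, nor did any other gene tested. The group means followed the order LowMg-LFD, NormMg-LFD, LowMg-HFD, NormMg-HFD, from high to low, in 9 genes, and Acad8 was the exception. The first pair in that order did not pass the test in any gene. The plot of FPKM by mouse shows the levels, and the plot of fold changes gives each comparison with its interval.

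**Figure D1:**
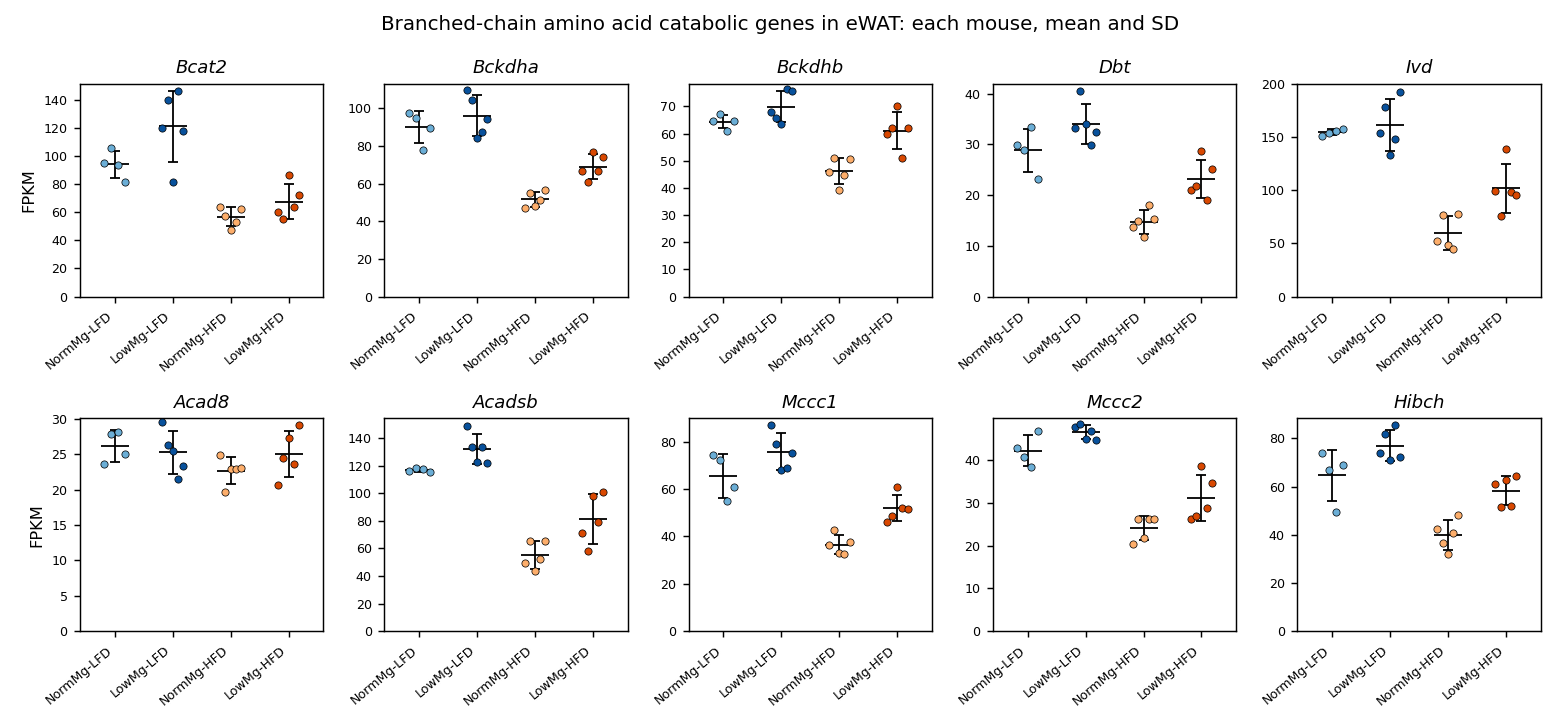
FPKM (y axis, linear from 0, with its own scale in each panel) of the 10 genes in each mouse by diet group (x axis); points are mice, the long bar is the group mean and the whiskers are the SD (n = 4 for NormMg-LFD, n = 5 for the others). The mean of NormMg-HFD mice is the lowest in every panel, and that of LowMg-HFD mice lies between it and the means of both LFD groups, although single mice overlap, as in Hibch and Bcat2. The 4 groups of Acad8 overlap, and all its values lie between 19.7 and 29.6 FPKM.

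Bcat2, the mitochondrial aminotransferase that starts the pathway (chr7:45570153-45589711, GRCm38), followed the fat content of the diet. Its level was 94.8, 106, 93.9 and 81.6 FPKM in NormMg-LFD mice and 63.5, 57.3, 47.3, 52.9 and 62.3 FPKM in NormMg-HFD mice. It was 120, 140, 81.4, 147 and 118 FPKM in LowMg-LFD mice, with replicate 3 well under the other LowMg-LFD mice. LowMg-HFD mice had 59.8, 55.0, 86.8, 63.5 and 72.6 FPKM, a range that takes in 3 of the 5 NormMg-HFD mice. Bcat2 fell with fat at normal Mg2+ (log2 fold change -0.72 ± 0.15 SE, adjusted p = 0.00105) and at low Mg2+ (-0.82 ± 0.14, adjusted p = 0.00145). The difference between LowMg-HFD and NormMg-HFD mice was 0.24 (95% confidence interval -0.06 to 0.54, adjusted p = 0.266), so that a rise of the size seen in Bckdha lies inside its interval. An antisense transcript, 0610005C13Rik, shares 622 exon bases with Bcat2 on the opposite strand, and whether reads were counted by strand is not given in the sources used here.

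The BCKDH complex is built from the E1 alpha subunit Bckdha, the E1 beta subunit Bckdhb and the E2 core Dbt, the acyltransferase that carries the lipoic acid arm. All 3 rose with low Mg2+ on the HFD and all 3 fell with fat at normal Mg2+. Bckdha (chr7:25629946-25658981) was at 97.4, 95.02, 78.0 and 89.7 FPKM in NormMg-LFD mice and at 47.1, 54.8, 48.0, 51.5 and 56.7 FPKM in NormMg-HFD mice. In LowMg-HFD mice it was at 66.9, 60.6, 76.8, 66.9 and 74.2 FPKM, and in LowMg-LFD mice at 110, 104, 84.5, 87.2 and 94.1 FPKM. Every LowMg-HFD mouse lay above every NormMg-HFD mouse and below every LFD mouse. The difference was 0.41 ± 0.09 (adjusted p = 0.00516) for low Mg2+ on the HFD and -0.79 ± 0.10 (adjusted p = 4.89e-06) for fat at normal Mg2+.

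Exons of B3gnt8, a glycosyltransferase gene, share 1171 bases with those of Bckdha on the opposite strand, so that without strand their reads cannot be told apart there. B3gnt8 was lower in level, at 18.6 to 20.7 FPKM in NormMg-LFD, 12.8 to 15.1 FPKM in NormMg-HFD and 14.7 to 18.7 FPKM in LowMg-HFD mice. It too fell with fat at normal Mg2+ (-0.52, adjusted p = 0.000361) and rose with low Mg2+ on the HFD (0.28, adjusted p = 0.0425). How much of either gene's value comes from shared reads was not tested.

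Dbt (chr3:116513070-116549981) was the least abundant of the subunits, with 29.8, 28.8, 33.5 and 23.2 FPKM in NormMg-LFD mice. It had 13.7, 14.9, 11.7, 18.2 and 15.4 FPKM in NormMg-HFD mice and 21.1, 21.7, 28.7, 19.1 and 25.2 FPKM in LowMg-HFD mice, and LowMg-LFD mice had 33.2, 40.6, 34.1, 29.9 and 32.6 FPKM. The HFD groups did not overlap, although LowMg-HFD replicate 4, at 19.1 FPKM, came close to the highest NormMg-HFD mouse. Dbt rose by 0.62 ± 0.13 (adjusted p = 0.00380) with low Mg2+ on the HFD, the second largest rise of the 10 genes. With fat it fell by 0.92 at normal Mg2+ (adjusted p = 2.73e-05) and by 0.54 at low Mg2+ (adjusted p = 0.00727).

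Bckdhb (chr9:83925145-84124240) changed least of the subunits with fat. It ranged from 61.1 to 67.3 FPKM (median 64.6) in NormMg-LFD, from 63.6 to 76.5 FPKM (median 68.1) in LowMg-LFD, from 39.1 to 50.9 FPKM (median 45.9) in NormMg-HFD and from 51.1 to 70.2 FPKM (median 62.1) in LowMg-HFD mice. The HFD groups met almost edge to edge, at 50.9 and 51.1 FPKM. Bckdhb rose by 0.39 ± 0.09 with low Mg2+ on the HFD (adjusted p = 0.00556) and fell by 0.48 with fat at normal Mg2+ (adjusted p = 0.000596). Between LowMg-HFD and LowMg-LFD mice its difference was -0.20 (95% confidence interval -0.38 to -0.01, adjusted p = 0.150), which did not pass the test.

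Within a mouse, the ratio of Bckdha to Bckdhb was 1.40 ± 0.09 (SD, n = 4) in NormMg-LFD and 1.38 ± 0.21 (n = 5) in LowMg-LFD mice. It was 1.12 ± 0.08 in NormMg-HFD and 1.14 ± 0.12 in LowMg-HFD mice (n = 5 each). The ratio was lower in every NormMg-HFD mouse (1.03 to 1.23) than in every NormMg-LFD mouse (1.28 to 1.51). The difference of -0.32 in log2 ratio had p = 0.00794 by an exact two-sided permutation test, the smallest that 4 against 5 mice allow. Its adjusted p was 0.0529 over 20 ratio comparisons chosen after the values were seen. That value is lowered by ties at the same exact p with the ratios of Acad8 to Ivd and to Acadsb for fat at low Mg2+. Its nearness to 0.05 therefore carries no weight. At low Mg2+ the ratios of Bckdha to Bckdhb overlapped (0.98 to 1.31 in LowMg-HFD and 1.14 to 1.62 in LowMg-LFD mice), with a difference of -0.27 (exact two-sided permutation p = 0.0635, adjusted p = 0.141). None of the 20 passed 0.05 after adjustment, and 6 had an exact p under 0.05, of which 5 set Acad8 against Ivd or Acadsb, pairs chosen for their difference in response, so that those p-values support nothing. The ratio of Mccc1 to Mccc2, the subunits of a single carboxylase, lay between group means of 1.53 and 1.69, and its exact p was 0.198 or more in each of the 4 comparisons.

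**Figure D2:**
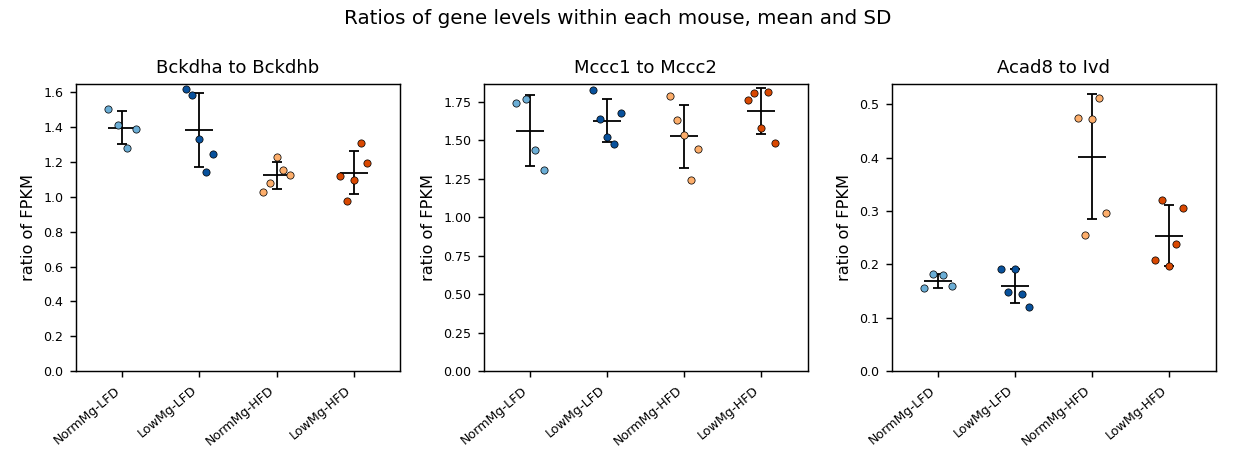
Ratio of FPKM within each mouse (y axis, linear from 0) for the gene pairs named above each panel, by diet group (x axis); points are mice, the long bar is the mean and the whiskers are the SD. The Bckdha to Bckdhb ratio is lower in every NormMg-HFD than in every NormMg-LFD mouse but overlaps between the low Mg2+ groups, the Mccc1 to Mccc2 ratio overlaps across all groups, and the Acad8 to Ivd ratio has its highest mean in NormMg-HFD mice, which range from 0.26 to 0.51.

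After the shared steps, isovaleryl-CoA from leucine is oxidised by IVD, 2-methylbutyryl-CoA from isoleucine by ACADSB, and isobutyryl-CoA from valine by ACAD8. Ivd (chr2:118861954-118882909) was the most abundant of the 10 genes on the LFD and the one with the largest fall with fat at normal Mg2+, while at low Mg2+ the estimates for Bcat2 and Acadsb were larger. It stood at 151, 154, 156 and 157 FPKM in NormMg-LFD mice, close to one another, and at 52.5, 77.0, 48.6, 44.8 and 77.6 FPKM in NormMg-HFD mice. LowMg-HFD mice had 99.7, 76.1, 139, 98.5 and 95.3 FPKM. All but replicate 2 of them lay above the NormMg-HFD mice, and replicate 3 reached the range of LowMg-LFD mice, which had 154, 179, 133, 148 and 193 FPKM. Ivd fell by 1.39 ± 0.17 with fat at normal Mg2+ (adjusted p = 4.79e-06) and by 0.67 ± 0.16 at low Mg2+ (adjusted p = 0.00815). It rose by 0.76 ± 0.16 with low Mg2+ on the HFD (adjusted p = 0.00406), a 1.70-fold difference.

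Acadsb (chr7:131410601-131448944) had 116, 118, 118 and 115 FPKM in NormMg-LFD mice and 49.4, 65.3, 43.6, 52.3 and 65.7 FPKM in NormMg-HFD mice. LowMg-HFD mice had 71.2, 58.2, 97.9, 79.5 and 101 FPKM, and again replicate 2 alone overlapped with the NormMg-HFD mice. Acadsb fell by 1.09 ± 0.14 with fat at normal Mg2+ (adjusted p = 8.89e-06) and rose by 0.54 ± 0.13 with low Mg2+ on the HFD (adjusted p = 0.00898). On the LFD it was higher in each LowMg-LFD mouse (149, 134, 123, 133 and 122 FPKM) than in each NormMg-LFD mouse, but the difference of 0.17 (95% confidence interval -0.13 to 0.47) had an adjusted p of 0.853.

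Acad8 (chr9:26974135-26999566) did not pass the test in any comparison. Its level was 23.6, 27.9, 28.2 and 25.0 FPKM in NormMg-LFD and 24.9, 19.7, 22.9, 22.9 and 23.0 FPKM in NormMg-HFD mice. It was 20.7, 24.4, 27.3, 23.6 and 29.1 FPKM in LowMg-HFD and 29.6, 26.4, 25.5, 21.5 and 23.3 FPKM in LowMg-LFD mice. The 4 groups overlap, and the difference with fat at normal Mg2+ was -0.20 (95% confidence interval -0.42 to 0.03, adjusted p = 0.157). Under quantile normalization this difference was -0.32 and passed the test (adjusted p = 0.0401). With low Mg2+ on the HFD the difference was 0.13 (95% confidence interval -0.08 to 0.34), an interval whose upper end lies below the change measured for Ivd.

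The ratio of Acad8 to Ivd, paired as the least and the most changed gene with fat at normal Mg2+, restates this difference and is given as a description. It was 0.17 ± 0.01 (SD, n = 4) in NormMg-LFD, 0.16 ± 0.03 in LowMg-LFD, 0.40 ± 0.12 in NormMg-HFD and 0.25 ± 0.06 in LowMg-HFD mice (n = 5 each). It was higher in every HFD mouse than in every LFD mouse of the same Mg2+ level. Between the HFD groups the ratios overlapped.

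Further along the leucine branch, 3-methylcrotonyl-CoA is carboxylated by an enzyme of a biotin-carrying alpha subunit, Mccc1, and a beta subunit, Mccc2. Mccc1 (chr3:35959312-36000678) ranged from 54.9 to 74.5 FPKM (median 66.6) in NormMg-LFD, from 68.2 to 87.1 FPKM (median 75.2) in LowMg-LFD, from 32.5 to 42.5 FPKM (median 36.5) in NormMg-HFD and from 46.2 to 60.8 FPKM (median 51.4) in LowMg-HFD mice. It rose by 0.50 ± 0.10 with low Mg2+ on the HFD (adjusted p = 0.00392), and the HFD groups did not overlap. Antisense transcripts and a pseudogene share up to 321 exon bases with Mccc1, and that pseudogene, B230207O21Rik, was at 3.61 FPKM or less in every mouse.

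Mccc2 (chr13:99948530-100015639) had 20.4, 26.1, 21.7, 26.1 and 26.1 FPKM in NormMg-HFD and 26.2, 27.0, 38.5, 28.8 and 34.7 FPKM in LowMg-HFD mice. It had 38.3 to 46.7 FPKM in NormMg-LFD and 44.8 to 48.3 FPKM in LowMg-LFD mice. The HFD groups did not overlap, but met almost edge to edge at 26.1 and 26.2 FPKM. Its rise of 0.35 ± 0.10 (adjusted p = 0.0261) was the smallest of those that passed and the least secure. The call was lost without NormMg-HFD replicate 1 or 3 or LowMg-HFD replicate 3 or 5 (adjusted p = 0.0751 to 0.0834), without a filter (0.0536) and in a fit of the HFD groups alone (0.0741). The fall of Mccc2 with fat, by 0.79 at normal Mg2+ (adjusted p = 1.75e-05) and by 0.58 at low Mg2+ (adjusted p = 0.00157), passed the test.

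Hibch, the hydrolase of the valine branch that frees 3-hydroxyisobutyrate from its CoA (chr1:52844929-52920986), had 73.8, 67.0, 49.5 and 68.8 FPKM in NormMg-LFD mice. It had 42.4, 36.5, 32.0, 40.7 and 48.2 FPKM in NormMg-HFD mice and 61.3, 51.4, 62.9, 52.0 and 64.4 FPKM in LowMg-HFD mice, and LowMg-LFD mice had 74.1, 81.7, 71.1, 85.6 and 72.3 FPKM. Every LowMg-HFD mouse was above every NormMg-HFD mouse, and the range of LowMg-HFD mice fell within that of NormMg-LFD mice. Hibch rose by 0.54 ± 0.12 (adjusted p = 0.00431) with low Mg2+ on the HFD and fell by 0.68 ± 0.12 with fat at normal Mg2+ (adjusted p = 0.000248). Its fall between LowMg-LFD and LowMg-HFD mice, by 0.39 (adjusted p = 0.0270), was lost in 6 of 28 alternatives, among them without LowMg-HFD replicate 2 (adjusted p = 0.0798) or 4 (0.0531) and without LowMg-LFD replicate 2 (0.0567) or 4 (0.0587).

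**Figure D3:**
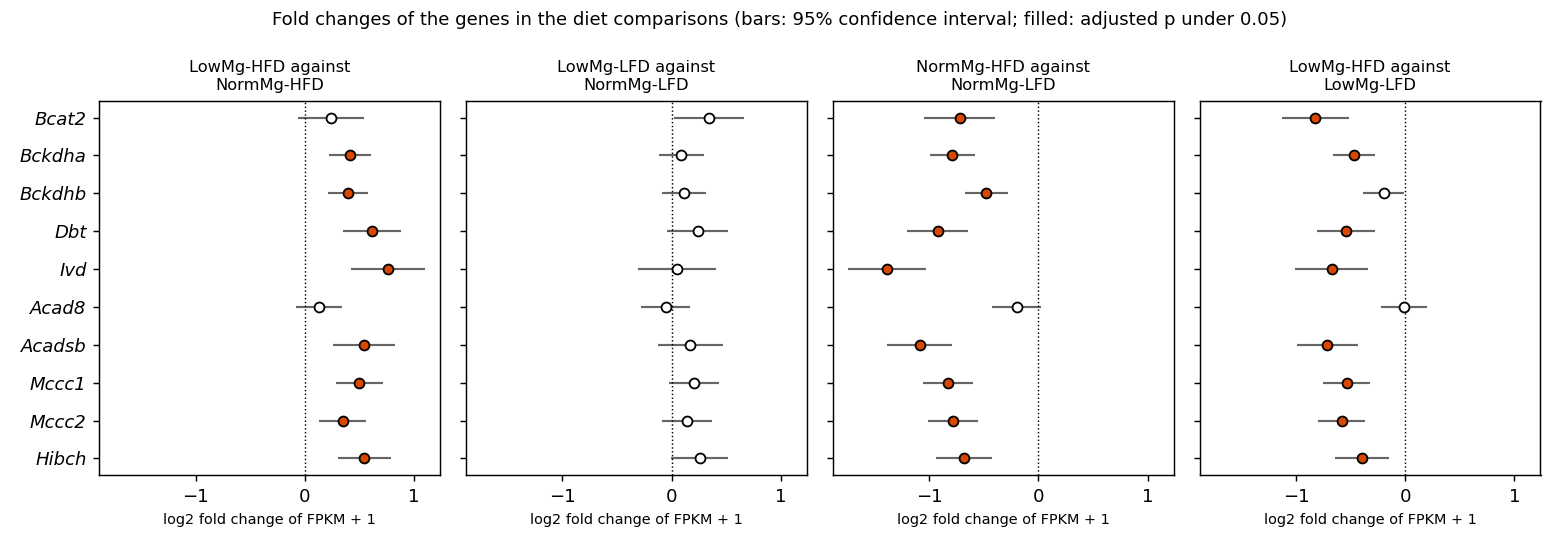
Log2 fold change of FPKM + 1 (x axis) of the 10 genes (y axis) in the 4 diet comparisons; points are estimates from limma, bars their 95% confidence intervals, and filled points have an adjusted p under 0.05. In the comparison of LowMg-HFD with NormMg-HFD mice 8 points are filled, on the LFD none, with fat at normal Mg2+ 9 and with fat at low Mg2+ 8.

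The first comparison asked what low Mg2+ did on the HFD. The 8 of 10 genes that rose compare with 5.58% of all genes tested that rose and 12.9% that fell, and the 6 of 10 without overlap with 3.20% of all genes whose values were higher in every LowMg-HFD mouse. The median log2 fold change was 0.45 over the 10 genes and -0.04 over all genes. With each mouse centred on its median, 7.79% of all genes rose and 10.2% fell, and 8 of the 10 genes still rose. It was 8 of 10 as well when LowMg-HFD replicate 4, NormMg-LFD replicate 3 or LowMg-LFD replicate 4 was left out, and 7 or 8 over the 28 alternatives.

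In the same mice markers of other cell types moved as well. All 8 macrophage markers fell with low Mg2+ on the HFD, with a summed level of 675 to 1161 FPKM in NormMg-HFD and 205 to 634 FPKM in LowMg-HFD mice. Of 5 stromal markers, 3 fell, and the summed level went from 1414 to 1991 FPKM down to 879 to 1101 FPKM. Among 8 adipocyte markers 3 rose, Adipoq, Plin1 and Slc2a4, and the median log2 fold change of the 8 was 0.40. Their summed level was 14274 to 18490 FPKM in NormMg-HFD and 16046 to 19666 FPKM in LowMg-HFD mice. Fabp4, with means of 8253 and 9892 FPKM, makes up most of that sum, which therefore hardly registers less abundant markers such as Slc2a4 (means of 34.1 and 70.3 FPKM). Of 5 endothelial markers 1 rose, Kdr. No marker of these 4 lists was at 0 in all mice of a group. In bulk tissue, fewer cells of a type and less RNA per cell cannot be told apart, and the part of these markers in the result was not tested.

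The second comparison asked what low Mg2+ did on the LFD. None of the 10 genes passed in limma, 1 had an unadjusted p under 0.05 (Bcat2, 0.34, 95% confidence interval 0.02 to 0.66), and 0% of all genes tested passed, with 547 at an unadjusted p under 0.05. The estimates ran from -0.05 for Acad8 to 0.34 for Bcat2, with a median of 0.16, and 9 of them were above 0. For Ivd, the interval of -0.31 to 0.41 takes in a change of either direction. The count was also 0 without NormMg-LFD replicate 3 and without LowMg-LFD replicate 4. The macrophage sum was 137 to 188 FPKM in NormMg-LFD and 103 to 207 FPKM in LowMg-LFD mice.

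Next, it was asked what fat did at normal Mg2+. The 9 of 10 genes that fell compare with 12.8% of all genes that fell and 24.6% that rose, and their 9 cases without overlap with 10.6% of all genes. The median was -0.79 over the 10 genes and 0.07 over all genes. Centring on the median of each mouse brought the shares of all genes to 18.9% falling and 19% rising, with 9 of the 10 genes falling. Without NormMg-LFD replicate 3 it was 9 of 10 as well. All 8 macrophage markers rose, from a sum of 137 to 188 FPKM to 675 to 1161 FPKM, 3 of 5 stromal markers rose, and 4 of 8 adipocyte markers fell while 1, Lep, rose. The part of these markers in the falls was not tested.

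Last among these, it was asked what fat did at low Mg2+. Here 8 of the 10 genes fell, all but Bckdhb and Acad8, with 6 of the 10 without overlap. Of all genes, 3.51% fell and 12.4% rose, and 2.30% were lower in every LowMg-HFD mouse than in every LowMg-LFD mouse. With centring, 6.37% fell and 7.11% rose, and 8 of the 10 genes fell. The median was -0.54 over the 10 genes and 0.10 over all genes. Without LowMg-HFD replicate 4 it was 7 of 10, and without LowMg-LFD replicate 4 it was 7 of 10, Hibch being lost in both. Of the macrophage markers 7 of 8 rose, to a sum of 205 to 634 FPKM from 103 to 207 FPKM. Of the stromal markers 3 of 5 rose (Col1a1, Col3a1 and Lum), to a sum of 879 to 1101 FPKM from 655 to 1055 FPKM. Of 8 adipocyte markers 1 rose (Lep) and none fell, and of 5 endothelial markers 1 rose (Cdh5). The part of these markers in the falls was not tested.

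The interaction asked whether low Mg2+ acted differently on the 2 fat contents. In limma it was called for none of the 10 genes and for 1.25% of all genes. The estimates were above 0 in 9 genes and -0.10 in Bcat2, and 3 of the 10 had an unadjusted p under 0.05, as had 1698 of the 8336 genes tested. The largest was that of Ivd, at 0.71 (95% confidence interval 0.22 to 1.2, adjusted p = 0.0960). Without LowMg-HFD replicate 2 it was 0.81 and passed the test (adjusted p = 0.0446). The comparisons share groups, since NormMg-HFD mice stand in the Mg2+ comparison on the HFD and in the fat comparison at normal Mg2+, and LowMg-HFD mice in the former and in the fat comparison at low Mg2+. For Ivd the estimates were 0.76 for low Mg2+ on the HFD, 0.05 on the LFD, -1.39 for fat at normal Mg2+ and -0.67 at low Mg2+. For Acadsb they were 0.54, 0.17, -1.09 and -0.71 in the same order.

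Among 15 other enzymes of the pathway, all tested, 6 rose and 1 fell with low Mg2+ on the HFD, with a median of 0.22. The strongest were Abat, the aminotransferase of 4-aminobutyrate that also acts on a valine side product, and Aldh6a1, which oxidises methylmalonate semialdehyde from valine. Abat went from 10.4 ± 4.24 FPKM (SD, n = 5) in NormMg-HFD to 24.7 ± 1.53 FPKM (n = 5) in LowMg-HFD mice, a rise of 1.25 ± 0.20 (adjusted p = 0.00178), and was at 14.7 ± 4.27 FPKM in NormMg-LFD and 13.4 ± 2.26 FPKM in LowMg-LFD mice. Its order of levels is thus unlike that of the 10 genes, with LowMg-HFD mice highest. Aldh6a1 had the same order of group means as Ivd, with 158 ± 7.38 FPKM in NormMg-LFD (n = 4), 69.8 ± 13.7 FPKM in NormMg-HFD and 117 ± 23.1 FPKM in LowMg-HFD mice (n = 5 each), and rose by 0.74 ± 0.13 (adjusted p = 0.00224).

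Echs1, the enoyl-CoA hydratase of the valine and isoleucine branches, rose by 0.37 (adjusted p = 0.00949), and Mut, the methylmalonyl-CoA mutase, by 0.38 (adjusted p = 0.0122). Hibadh and Pccb also passed. The call of Hibadh was lost in 6 of 28 alternatives (adjusted p up to 0.099), and that of Pccb, at an adjusted p of 0.0499982, in 20 of 28. The gene that fell was Hadha, the trifunctional protein subunit that serves fatty acid oxidation above all, by 0.36 (adjusted p = 0.0344, lost in 9 of 28 alternatives). The 8 that did not pass included Bcat1, Dld, Auh, Acat1, Hsd17b10, Pcca and Mcee, with differences from -0.56 (Bcat1) to 0.23 (Acat1).

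With fat at normal Mg2+, 8 of the 15 enzymes fell and 2 rose (median -0.45), and at low Mg2+ 4 fell and 2 rose (median -0.28). One that rose in both was Bcat1, the cytosolic partner of Bcat2, named here after its values were seen. It was at 4.67 ± 1.61 FPKM in NormMg-LFD (n = 4) and 11.8 ± 1.26 FPKM in NormMg-HFD mice (n = 5), a rise of 1.22 (adjusted p = 0.000961), in the same mice in which Bcat2 fell by 0.72. Bcat1 passed the filter on low values only through NormMg-HFD, the group where it was highest. Over the 28 alternatives, which include a fit with no filter, its adjusted p in this comparison was at most 0.0059. The macrophage markers rose with it, and their part in it was not tested.

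Of the 8 genes of control and transport 6 passed the filter, and 1 of them rose with low Mg2+ on the HFD. That was Klf15, a transcription factor known to act on amino acid catabolism, by 0.55 (adjusted p = 0.0309, lost in 7 of 28 alternatives). With fat at normal Mg2+, Klf15 fell from 30.7 ± 4.89 FPKM (n = 4) to 11.2 ± 2.21 FPKM (n = 5), by 1.38 (adjusted p = 9.01e-06), and Slc43a1, a transporter of large neutral amino acids, by 1.56 (adjusted p = 0.000798), while Slc3a2, the heavy chain of amino acid exchangers, rose by 0.73 (adjusted p = 0.000287). Slc43a1 passed the filter only through LowMg-LFD, the group where it was highest, and over the 28 alternatives, a fit with no filter among them, its adjusted p with fat at normal Mg2+ was at most 0.00533. Bckdk, the kinase that switches the BCKDH complex off, was 0.04 higher with low Mg2+ on the HFD (95% confidence interval -0.22 to 0.30) and -0.31 with fat at normal Mg2+ (-0.58 to -0.03, adjusted p = 0.0764). Ppm1k, the phosphatase that opposes it, and Slc7a5 did not pass the filter.

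Genes outside the pathway were read for comparison. The 8 adipocyte markers had a median of 0.40 with low Mg2+ on the HFD, close to the 0.45 of the 10 genes, and of -0.35 with fat at normal Mg2+. Of 10 mitochondrial genes of the citric acid cycle, respiratory chain and outer membrane, limma called none with low Mg2+ on the HFD (1 at an unadjusted p under 0.05, up to 2 called in the alternatives, median 0.06), while with fat at normal Mg2+ 4 fell and 1 rose (median -0.20). Sdha, a succinate dehydrogenase subunit, fell by 0.46 (adjusted p = 0.000715). Of 10 other acyl-CoA dehydrogenases and oxidases, which act on straight chains or lysine products, 2 rose with low Mg2+ on the HFD (median 0.19), led by Acad11 with 0.53 (adjusted p = 0.00942), and 3 fell and 1 rose with fat at normal Mg2+ (median -0.12). Of 12 genes for cofactors of these enzymes 9 were tested, and 1, Etfa, rose with low Mg2+ on the HFD (0.23, adjusted p = 0.0480, lost in 17 of 28 alternatives). These lists are shown in the plot of fold changes by gene group, and no test compared one list with another.

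**Figure D4:**
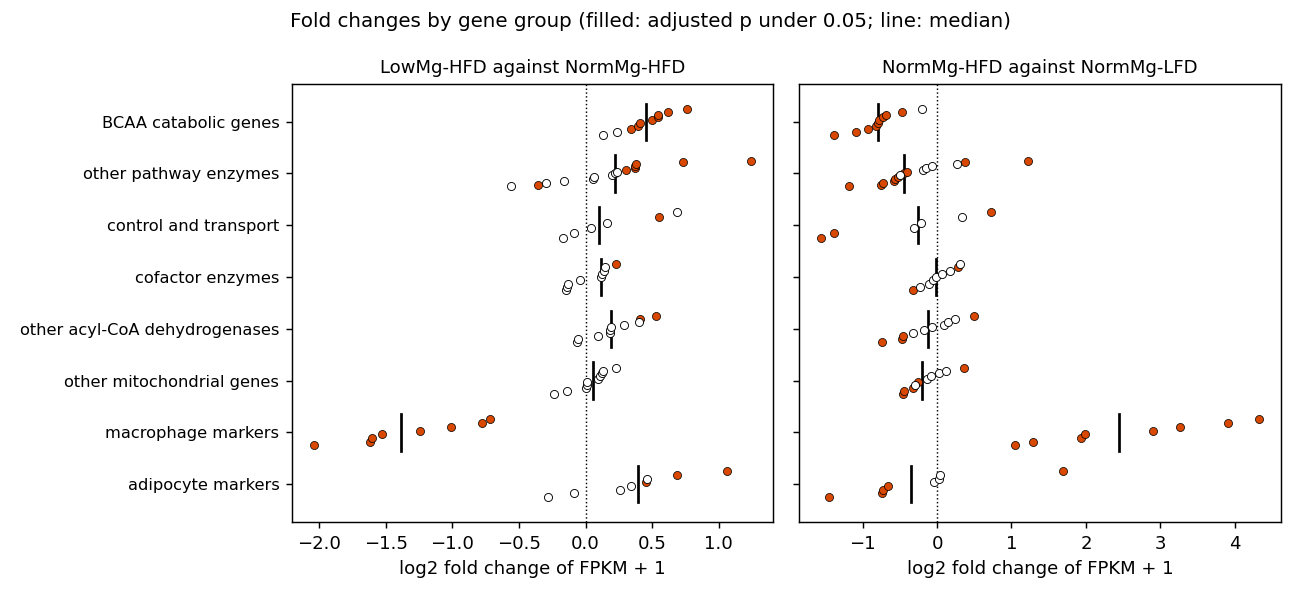
Log2 fold change of FPKM + 1 (x axis) of single genes, by gene group (y axis), for LowMg-HFD against NormMg-HFD mice (left) and NormMg-HFD against NormMg-LFD mice (right); filled points have an adjusted p under 0.05 and the line is the median of the group. The median of the 10 genes is 0.45 on the left and -0.79 on the right. That of the adipocyte markers is 0.40 and -0.35, and that of the macrophage markers is -1.39 and 2.45.

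The 10 genes also varied together from mouse to mouse. After subtraction of the group means, Pearson's r over the 19 mice ranged from -0.10 (Bckdhb and Acad8) to 0.80 (Bckdha and Mccc1) in the 45 pairs of genes, with a median of 0.46, and was above 0 in 42 pairs. Acad8 had the lowest median r with the other genes, 0.21, and Ivd the highest, 0.56. These are descriptions over mice whose genes share a library and a scaling. Genes outside the pathway, given below, also followed the mean of the 10 within groups. LowMg-HFD replicate 3 had the highest mean log2 level of the 10 genes among LowMg-HFD mice, 5.96, and replicate 2 the lowest, 5.52, with 5.596, 5.608 and 5.82 in replicates 1, 4 and 5. The macrophage sums of replicates 1 to 5 were 634, 572, 245, 205 and 277 FPKM, and the highest and the lowest sum, in replicates 1 and 4, went with almost the same level of the 10 genes. In NormMg-HFD mice the order was the inverse throughout, with sums of 675, 813, 934, 1057 and 1161 FPKM in replicates 5, 2, 4, 1 and 3 and mean log2 levels of 5.415, 5.35, 5.23, 5.22 and 5.05. The part of macrophages in the levels was not tested.

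Outside all lists, the genes whose log2 levels most resembled the mean of the 10 over the 19 mice were Gys1 (glycogen synthase, r = 0.983), Retn (the adipocyte hormone resistin, 0.983), Cfd (the adipocyte protease adipsin, 0.979), Sfxn1 (a mitochondrial serine carrier, 0.974) and Csad (an enzyme of taurine synthesis, 0.973). Within groups their r was 0.811 to 0.881. Retn was at 1222 ± 221 FPKM in NormMg-LFD (n = 4), 274 ± 60.8 FPKM in NormMg-HFD and 717 ± 282 FPKM in LowMg-HFD mice (n = 5 each). Gys1 was at 46.4 ± 3.34, 23.8 ± 3.44 and 32.8 ± 4.18 FPKM in the same groups.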

How the data were processed

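RNA from eWAT of 19 mice was sequenced, with a library for each mouse. Per the labels and methods, the authors mapped reads to the mouse transcriptome (GRCm38/mm10) with HISAT and Bowtie2, estimated FPKM with RSEM 1.2.31 and deposited a single FPKM table. Whether counting used strand is not given in the sources used here. The number of reads and the percent of reads mapped, also deposited by the authors, gave the depth. FPKM hold no read counts, so the counting error of a value is unknown, and precision was taken from the spread between mice.

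Of 24238 genes, 1 with a cell that is not a number was left out, 12 lines without a gene identifier were skipped and 26 symbols turned into dates were restored. The log2 was taken after adding 1. To be tested, a gene needed an average above 8 FPKM in some group and a value above 8 in 4 or more mice of that group. The methods of the study give these limits without saying whether they are on the FPKM or the log2 scale, and here they were read as FPKM. All 4 groups, as the labels give them, entered a single limma fit (limma 3.58.1 in R 4.3.3, prior variance trended on mean level), and two-sided p-values were adjusted over 8336 genes. Ratios were compared by exact two-sided permutation tests of the mean log2 ratio. The pipeline was tested on simulated data.

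The members and the gene lists were chosen with earlier results of these data known. The genes named are all 10 members, of each other list up to 4 that passed (by smallest adjusted p for LowMg-HFD against NormMg-HFD), pathway enzymes that did not pass, and the 5 genes most like the mean of the members. Bcat1, Bckdk, Hibadh, Pccb, Hadha, Ppm1k, Slc7a5 and the single markers were named after their values were seen, as were the ratios, and 2 genes are not reported here. The results were recomputed with a pseudocount of 0.1, with a looser filter (FPKM over 1) and with none, after median centring or quantile normalization, without the trend, on the compared groups alone, with the replicate number as a block, without each mouse, and on 18 mice with log2(FPKM + 1) over 3 as the filter, which kept 8808 genes, the number that the methods of the study give. In the last of these LowMg-HFD replicate 4 was left out. The labels do not say which mouse the study removed, and this choice of mouse and filter was taken from an earlier processing of the same data. Positions are from GENCODE (GRCm38). Plots were made in matplotlib 3.10.9 under Python 3.11.15.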

Additional observations from a re-analysis of the deposited data

Results flagged for a closer look

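Among 184 groups of mice examined for a mouse far from the others of its group, 7 held one, none of them for a level of the 10 genes, where chance alone gives about 5% of groups. In NormMg-LFD replicate 3 the pancreas markers summed to 1587 FPKM, against 16.2 to 22.3 FPKM in the other mice of the group. In LowMg-LFD replicate 4 the epididymis markers summed to 132.7 FPKM, against 0.26 to 0.90 FPKM. The stromal markers summed to 1137 FPKM in NormMg-LFD replicate 4, against 944 to 954 FPKM. Etfa was at 165.9 FPKM in LowMg-HFD replicate 4, against 190 to 198 FPKM. In LowMg-LFD replicate 1, Sdha was at 216.9 FPKM against 172 to 176 FPKM, and Slc3a2 at 44.56 FPKM against 57.8 to 58.7 FPKM. The ratio of Acad8 to Acadsb was 0.4202 in LowMg-HFD replicate 2, against 0.279 to 0.296.

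Abat differed in its response to low Mg2+ between the HFD and the LFD, with an interaction of 1.352 on the log2 scale (adjusted p = 0.0447 by limma). Abat was higher in each of 5 LowMg-HFD mice (23.5 to 27.3 FPKM) than in any NormMg-HFD mouse (6.06 to 17.5 FPKM), and the call of the interaction was lost in 17 of 27 alternatives (adjusted p up to 0.0977).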

How the results depend on the processing

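The calls of the 10 genes moved little. Over the alternatives run, 7 or 8 genes rose with low Mg2+ on the HFD, 0 changed on the LFD, 9 or 10 fell with fat at normal Mg2+ and 7 or 8 at low Mg2+. The number called for the interaction was 0 to 1 when single mice were left out, the 1 being Ivd without LowMg-HFD replicate 2. Values that changed sign were none of them called. The Acad8 difference on the LFD was 0.0104 with median centring and 0.0021 with quantile normalization. That of Acad8 with fat at low Mg2+ ran from -0.0681 to 0.0498 when single mice were left out and was 0.0051 in 18 samples (LowMg-HFD replicate 4 left out and log2(FPKM + 1) over 3 as the filter). That of Ivd on the LFD ran from -0.0165 to 0.117 when single mice were left out. Why these values moved was not tested. Of the 15 other enzymes, 4 to 6 rose and 0 to 2 fell with low Mg2+ on the HFD, and with fat at low Mg2+ 4 to 8 fell. None of the 20 ratio comparisons passed after adjustment without any single mouse, and 5 to 8 had an exact p under 0.05. The smallest exact p that the groups allow is 0.00794 by the permutation test with all mice, and leaving out a mouse raises it in its comparisons. Even a ratio without overlap can therefore fail after adjustment, and this result does not show that the ratios were equal.

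Replicate numbers are shared between groups by the labels. With the replicate number as a block, 8 genes rose with low Mg2+ on the HFD and no call of the 10 genes changed. Over 27 same-numbered pairs of mice, the correlation of deviations from the group means was -0.183 to 0.339 (median 0.0032) and over 0.1 in 5. The median over differently numbered pairs was -0.0018. No general pairing by number was thus seen over all genes, but such correlations cannot exclude one with small effects or effects on few genes.

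FPKM carry no counts, so no limit from depth was computed for a single value. With 4 or 5 mice a group the intervals on the LFD are wide, and a p over the threshold does not show that levels were equal.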
